A study of Mus musculus with 2 samples.

Results

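The genes that control the activation of the sterol regulatory element-binding proteins (SREBPs) were compared between 2 pools of mouse liver RNA. They were Srebf1, Srebf2, Scap, Insig1, Insig2, Mbtps1, Mbtps2 and Stard4, and they were found as the probe sets whose platform annotation gives 1 of these 8 symbols alone. The 8 genes had 16 probe sets among the 45101 of the array, and all 16 are described here. Male C57Bl/6J mice, 9 weeks old before acclimatisation, were depleted of n-3 polyunsaturated fatty acids by diet in a feeding period of 112 days. In the DEF/FOS group this diet, with an n-6 to n-3 ratio of 127.2, was kept to the end, and fructooligosaccharides (FOS, a fermentable fibre) were given in the drinking water over the last 10 days, to reach 0.25 g per day. In the DEF/CT group the depleted diet was exchanged over the last 10 days for a soybean oil control diet with a ratio of 6.9. RNA of the mice of each group, 8 per group by the treatment protocol, was pooled and put on 1 array. Both groups had been depleted, and they differed in fibre and in oil, so the 2 cannot be told apart. Each group is thus a single measurement, without a test or an SD between animals.

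SREBPs are made as membrane proteins of the endoplasmic reticulum. When membrane cholesterol is low, the escort protein SCAP carries them to the Golgi, where site-1 protease (Mbtps1) and then site-2 protease (Mbtps2) release the part that enters the nucleus. When sterols are plentiful, INSIG proteins hold SCAP and SREBP back. SREBP-2 mainly drives cholesterol synthesis and uptake, and SREBP-1c, the main SREBP-1 form of liver, drives fatty acid synthesis and is known to be held down by dietary polyunsaturated fatty acids. All these steps after transcription lie outside an RNA array, which measures transcripts and neither cleavage nor nuclear protein.

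The promoter windows of 5 of these genes' starts are shown because Srebf2 was the only member past 1.5-fold, Srebf1 is its paralogue, and Scap, Insig1 and Insig2 had the most negative differences. Each window runs from 250 bases before to 50 bases after a start in RefSeq (GRCm38.p6), read 5′ to 3′ on the gene's strand. Capitals mark matches, on either strand, to the SREBP consensus TCACNCCAC with up to 1 mismatch and to CCAAT, the box bound by NF-Y, a known partner of SREBPs.
Srebf2: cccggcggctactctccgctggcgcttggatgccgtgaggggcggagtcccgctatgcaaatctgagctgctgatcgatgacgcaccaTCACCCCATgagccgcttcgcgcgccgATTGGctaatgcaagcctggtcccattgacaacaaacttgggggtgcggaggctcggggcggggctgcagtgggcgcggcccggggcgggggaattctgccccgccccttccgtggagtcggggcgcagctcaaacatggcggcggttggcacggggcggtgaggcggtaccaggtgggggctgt
Srebf1, most downstream start: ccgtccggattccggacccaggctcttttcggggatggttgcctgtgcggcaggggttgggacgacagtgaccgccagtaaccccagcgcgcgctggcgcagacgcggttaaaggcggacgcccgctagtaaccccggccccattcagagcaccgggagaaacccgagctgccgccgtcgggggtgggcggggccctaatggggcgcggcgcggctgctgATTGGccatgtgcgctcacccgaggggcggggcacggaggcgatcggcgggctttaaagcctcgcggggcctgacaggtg
Scap, most upstream start: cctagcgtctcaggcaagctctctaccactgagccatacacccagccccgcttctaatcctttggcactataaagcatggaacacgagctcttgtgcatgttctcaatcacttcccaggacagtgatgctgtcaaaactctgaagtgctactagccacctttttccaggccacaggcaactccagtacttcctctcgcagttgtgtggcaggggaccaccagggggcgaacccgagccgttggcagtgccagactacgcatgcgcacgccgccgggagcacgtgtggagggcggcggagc
Insig1: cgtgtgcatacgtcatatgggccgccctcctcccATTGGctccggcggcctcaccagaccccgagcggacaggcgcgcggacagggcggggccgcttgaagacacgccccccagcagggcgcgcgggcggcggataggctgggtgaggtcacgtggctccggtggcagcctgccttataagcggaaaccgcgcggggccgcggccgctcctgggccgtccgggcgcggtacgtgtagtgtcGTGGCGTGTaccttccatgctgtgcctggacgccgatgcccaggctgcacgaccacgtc
Insig2, most upstream start: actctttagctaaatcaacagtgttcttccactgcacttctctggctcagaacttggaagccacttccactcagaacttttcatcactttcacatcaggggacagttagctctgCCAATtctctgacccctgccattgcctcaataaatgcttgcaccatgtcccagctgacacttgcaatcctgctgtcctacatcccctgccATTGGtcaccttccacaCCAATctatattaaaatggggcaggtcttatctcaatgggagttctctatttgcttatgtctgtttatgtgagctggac

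The Srebf2 window is chr15:82147019-82147318 (plus strand), the Srebf1 window chr11:60210422-60210721 (minus strand) and the Scap window chr9:110333038-110333337 (plus strand). The Insig1 window is chr5:28071162-28071461 (plus strand) and the Insig2 window chr1:121332540-121332839 (minus strand). In Srebf2, TCACCCCAT lies at positions -162 to -154 from the start and differs from the consensus by C9T, counted from its 5′ end. A CCAAT box on the other strand lies at -135 to -131. The Insig1 window matches the consensus on the other strand at -9 to -1, with T1A. Stard4, itself a target of SREBP-2, was left out of the window search, so the counts below cover the other 7 member genes only. Whether its windows hold a match was not tested. Of their 12 windows, 3 held such a match, the other one being at a downstream start of Insig2 that is not shown. The consensus without a mismatch was in 0 of the 12. Of 32851 windows of the same length, 24.2% hold the consensus with up to 1 mismatch and 1.24% without. The 3 of 12 is thus near the background, for the members other than Stard4. CCAAT is in 37.4% of all windows, and it was in those of Srebf2, Insig1, the upstream start of Insig2 and the outer starts of Srebf1. The letters of the palindromic E-box, CACGTG, are in 7.15% of windows and were in those of Insig1 and Scap. The Scap windows overlap, and their CACGTG is the same site. The GC box, GGGCGG, is in 35.7% of windows and was found in at least 1 window of every one of the 7 genes except Mbtps2. That is a count of genes, which have up to 3 windows each, so it cannot be set against the share of windows. No other motif was searched, and the printed matches do not overlap. A match is a run of letters and not a measured site. RefSeq lists 3 starts for Srebf1 and 3 for Insig2, and the array signals cannot be assigned to any of them here.

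Srebf2 also carries the microRNA miR-33 within its bounds on chromosome 15, which is known to repress the cholesterol exporter gene Abca1. It is shown because a difference in Srebf2 transcripts concerns its host gene. Capitals mark the seed, bases 2 to 8.
mmu-miR-33-5p: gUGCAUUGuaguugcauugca
mmu-miR-33-3p: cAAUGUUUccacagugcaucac

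Signals are MAS5 intensities on a linear scale. The difference of a probe set is the log2 signal of the DEF/FOS pool minus that of the DEF/CT pool, centred on the median of all probe sets above a floor of 19.4, the median signal. A gene is represented by its brightest probe set, and called here when it differs at least 1.5-fold, 0.58 on the log2 scale. Of 11163 genes above the floor, 6.75% were called higher and 7.82% lower in the DEF/FOS pool, while 1.74% were higher by 2-fold or more and 2.19% lower by as much, 3.93% together. Signals of different probe sets are not compared with each other, because each has its own response.

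Markers of several cell types other than hepatocytes differed between the pools. All 11 hepatocyte markers lay above the floor, with a median difference of -0.04, and albumin (Alb) had 11023 in DEF/FOS and 11303 in DEF/CT livers. All 12 skeletal muscle markers were lower in the DEF/FOS pool, where 8 lay below the floor, and their summed signal was 164 in DEF/FOS and 2839 in DEF/CT livers. Neutrophil markers summed to 410 in DEF/FOS and 122 in DEF/CT livers, with 3 of 4 above the floor called higher. Those called were S100a8, S100a9 and Lcn2. Ngp had 32.5 in DEF/FOS and 30.6 in DEF/CT livers, and Camp lay below the floor in both pools. B and plasma cell markers summed to 355 in DEF/FOS and 1010.3 in DEF/CT livers, with 3 of 4 called lower. Those called were Ighm, Ms4a1 and Jchain. Ighm, the largest part of the sum, had 243 in DEF/FOS and 809 in DEF/CT livers. Its 5 probe sets above the floor ran from -1.72 to 0.23, so they disagreed in sign. Ms4a1 lay below the floor in the DEF/FOS pool. Kupffer cell markers had a median of 0.21 over 10 genes, with 1 called higher. Endothelial, stellate, adipocyte and T or NK cell markers had 0 called, and cholangiocyte markers 1 of 3. The signal ratio of 3-prime to 5-prime actin probe sets was 1.97 in DEF/FOS and 2.16 in DEF/CT livers. The part of these differences in the values of the SREBP processing genes was not tested.

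Among the 8 genes, 1 was called higher in the DEF/FOS pool, 0 were called lower, and 0 reached 2-fold. Set against the 6.75% of all genes called higher, 1 gene of 8 is no result about the group. Their median difference was -0.09 on the log2 scale, against 0.00 over all genes, and their median absolute difference was 0.19, against 0.23 over all genes. The differences ran from -0.52 for Scap to 0.76 for Srebf2, with 3 genes above 0 and 5 below. Of the 16 probe sets 15 lay above the floor, 7 with positive and 8 with negative differences.

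**Figure D1:**
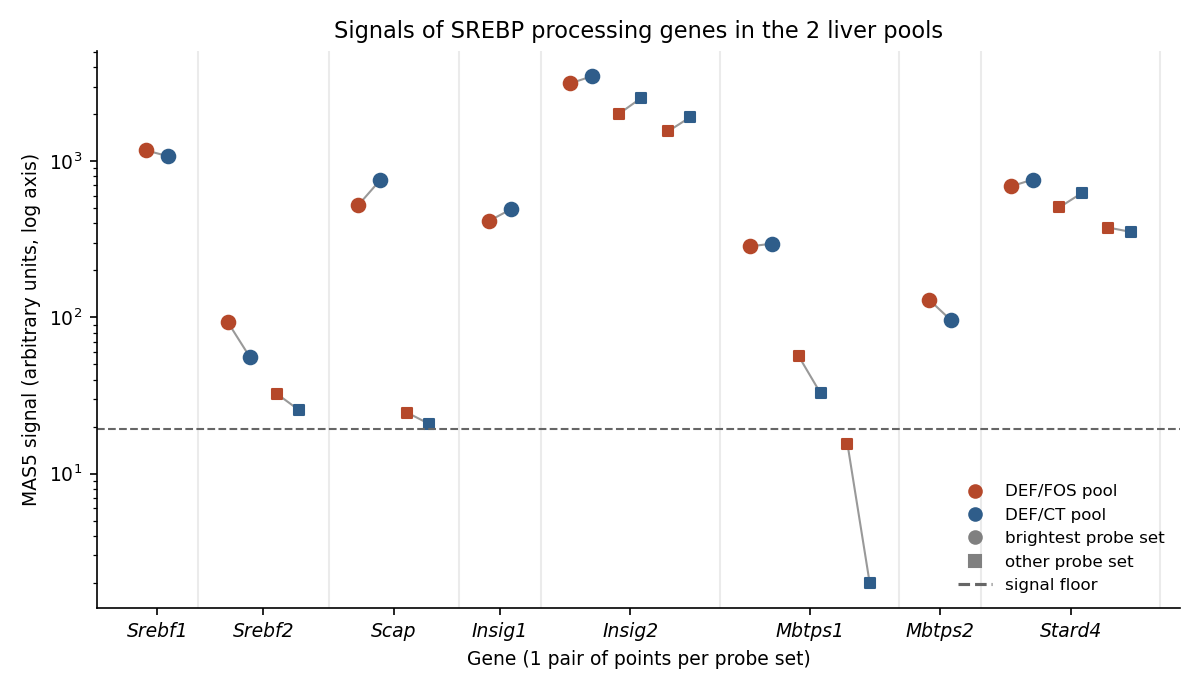
MAS5 signal on a log axis for each of the 16 probe sets, with the DEF/FOS pool left of the DEF/CT pool, 1 array each, so there are no error bars. Srebf2 sits higher in the DEF/FOS pool in both its probe sets, Insig2 sits lower in all 3, and 1 probe set of Mbtps1 lies below the dashed floor of 19.4 in both pools.

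The transcription factor genes differed unequally. Srebf2 had a signal of 93.3 in DEF/FOS and 55.6 in DEF/CT livers, a difference of 0.76, or 1.70-fold higher. Its other probe set had 32.5 in DEF/FOS and 25.5 in DEF/CT livers, a difference of 0.36, so both probe sets pointed the same way, the dimmer one below 1.5-fold. Both are dim. Among the genes with signals of 49.0 to 122, where the brighter one lies, 14.7% were called in either direction and probe sets of the same gene differed from each other with an SD of 0.46. That SD covers probe sets within these 2 arrays and leaves out the spread between animals and arrays. A difference of at least this size, in either direction, was found in 8.23% of all genes. The call was lost with an offset of 32 signal units, where the difference was 0.53, and with the median over both probe sets, where it was 0.56. In liver pools, a different share of a cell type and a different amount of RNA per cell cannot be told apart, and this holds for every value here.

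Srebf1, which encodes SREBP-1a and SREBP-1c, had 1 probe set, with signals of 1169.8 in DEF/FOS and 1074 in DEF/CT livers. Its difference was 0.14, and 67.0% of genes lay at least as far from 0. The log2 difference of Srebf2 exceeded that of Srebf1 by 0.62. This gap was 0.40 with an offset of 32 and 0.42 with the median over probe sets.

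Scap had the most negative difference of the 8 genes. Its signal was 522 in DEF/FOS and 759 in DEF/CT livers, a difference of -0.52, or 1.44-fold lower, short of 1.5-fold. Among the genes with signals above 324, where this probe set lies, 5.09% were called and the SD between probe sets was 0.29. The other Scap probe set, near the floor, had 24.6 in DEF/FOS and 20.8 in DEF/CT livers, a difference of 0.26 of the opposite sign. With the median over both probe sets the difference was -0.13. The brighter probe sets of Srebf2 and Scap lay 1.29 apart on the log2 scale, the full span of the 8 genes.

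The INSIG genes, whose products retain SCAP in the endoplasmic reticulum, were both slightly lower. Insig1, itself a target of SREBPs, had signals of 413 in DEF/FOS and 492 in DEF/CT livers in its only probe set, a difference of -0.24. Insig2 had 3144 in DEF/FOS and 3502 in DEF/CT livers in its brightest probe set, a difference of -0.14. Its other probe sets differed by -0.32, at 2013 in DEF/FOS and 2539 in DEF/CT livers, and by -0.29, at 1551 in DEF/FOS and 1912 in DEF/CT livers. All 3 were thus negative, and the brightest showed the smallest difference. None of these values reached 1.5-fold: Insig1 lay within the SD of 0.29 between probe sets at this signal, and of the Insig2 probe sets 1 lay just outside it.

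The protease genes gave no common direction. Mbtps2 had signals of 130.0 in DEF/FOS and 95.6 in DEF/CT livers in its only probe set, a difference of 0.46, or 1.37-fold, about the SD between probe sets at this signal. Mbtps1 had 284 in DEF/FOS and 296 in DEF/CT livers in its brightest probe set, a difference of -0.05. A dimmer Mbtps1 probe set differed by 0.81, at 56.7 in DEF/FOS and 32.6 in DEF/CT livers, and so was 1.76-fold higher. The last had signals of 15.5 in DEF/FOS and 2.01 in DEF/CT livers, both below the floor, and gives no fold. Among genes with signals of 122 to 324, where the brightest lies, 6.52% were called in either direction, and among those of 19.5 to 49.0, where the dimmer lies, 32%. The probe sets of Mbtps1 disagreed, by 0.86 on the log2 scale between those above the floor. Of the 22519 probe sets above the floor, 7.58% were called higher and 8.85% lower in the DEF/FOS pool, against 2 and 0 of the 15 described here.

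Stard4, a soluble carrier of cholesterol and a target of SREBP-2, had signals of 688 in DEF/FOS and 762 in DEF/CT livers in its brightest probe set, a difference of -0.13. The others differed by -0.29, at 506 in DEF/FOS and 624 in DEF/CT livers, and by 0.11, at 376 in DEF/FOS and 353 in DEF/CT livers. Of the 5 member genes with more than 1 probe set above the floor, 3 had probe sets of both signs, namely Stard4, Scap and Mbtps1. Over all genes with more than 1 such probe set, 50.7% had both signs.

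**Figure D2:**
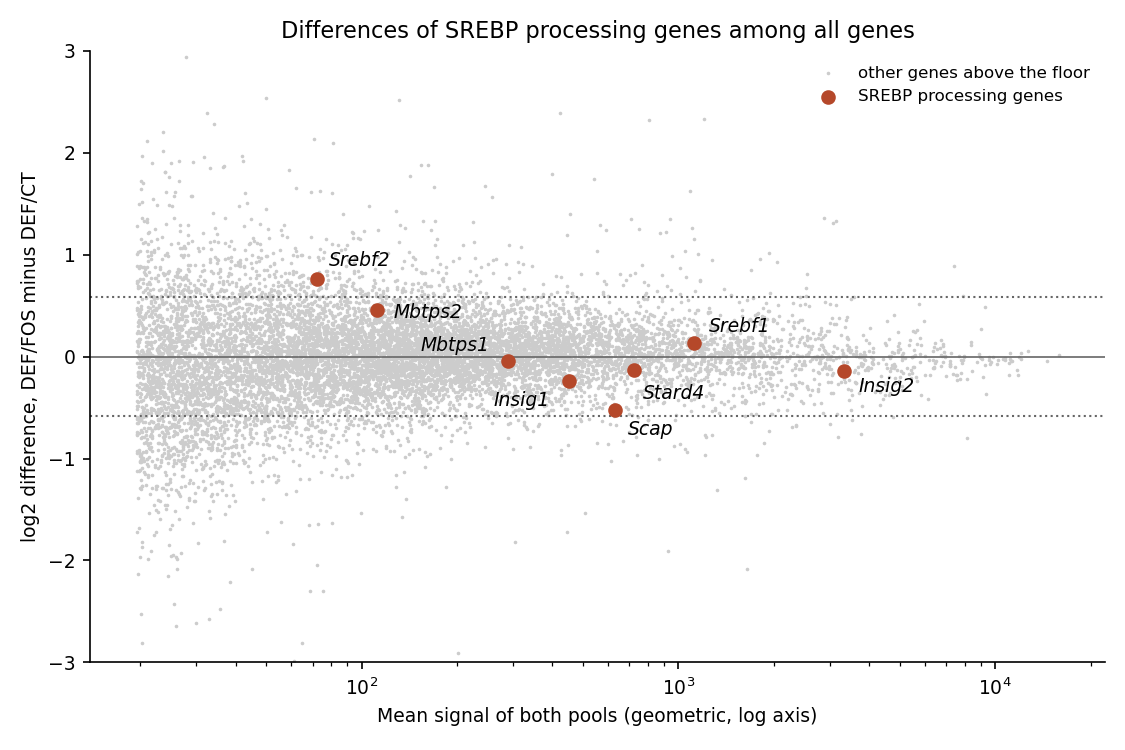
log2 difference, DEF/FOS minus DEF/CT, against the geometric mean signal (log axis) of 11163 genes, grey, and the 8 SREBP processing genes, coloured; dotted lines mark 1.5-fold, and 13 genes lie beyond the vertical range. Srebf2, at 0.76, is the only coloured point outside the dotted lines, at a signal where the grey cloud is wide, and Scap, at -0.52, sits near the lower line where the cloud is narrower.

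The other genes of the pathway were described in 9 lists. They held 128 different genes above the floor besides the 8 members, of which 10, or 7.81%, were called higher and 4, or 3.125%, lower in the DEF/FOS pool. The corresponding shares of all genes were 6.75% and 7.82%. Of these 14 calls 6 were kept in every alternative, those of Rnf145, Pctp, Pltp, Mid1ip1, Pklr and Ppargc1b. Where a call below is said to be lost with the higher floor, at the 75th percentile, or without the a, s and x probe sets, whose names mark matches to several transcripts, the gene then has no value, apart from Sqle, which kept one below the fold used. The median difference was 0.03 over these 128 genes and 0.00 over all genes.

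In the transport of SCAP and SREBP and the turnover of INSIG, 25 genes lay above the floor, with 1 called higher, 0 lower and a median of 0.06. The called gene was Rnf145, a ubiquitin ligase that acts on SCAP, with signals of 536 in DEF/FOS and 313 in DEF/CT livers, or 1.73-fold higher. Ube2g2, a ubiquitin-conjugating enzyme of endoplasmic reticulum-associated degradation, was 1.47-fold higher in its brightest probe set. Sec23b, a subunit of the coat of vesicles that leave the endoplasmic reticulum, had a difference of 0.40. Paqr3, a Golgi anchor of SCAP and SREBP, had one of -0.41. Other substrates of the same proteases had 6 genes above the floor, 0 called higher and 1 lower, with a median of 0.00. Atf6b, at 34.7 in DEF/FOS and 63.1 in DEF/CT livers, was 1.80-fold lower, a call lost with an offset of 32 and with the higher floor. Creb3l2 differed by 0.44. Atf6, the stress sensor of the endoplasmic reticulum, differed by 0.25 and Creb3 by -0.23, both with probe sets of opposite signs. Creb3l3, a membrane-bound transcription factor of liver, had a difference of -0.04.

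Of the SREBP-2 target genes of cholesterol synthesis, 17 lay above the floor, with 11 positive and 6 negative differences, 1 called higher, 0 lower and a median of 0.19. Sqle, the squalene epoxidase, had signals of 434 in DEF/FOS and 292 in DEF/CT livers, a difference of 0.59 that is just past the fold used, and the list had 0 called higher without centring, after quantile normalization, with either offset, 16 or 32 signal units, and with the higher floor. Hsd17b7, a ketoreductase of the late pathway, was 1.42-fold higher. The early pathway kinase gene Mvk was 1.35-fold higher, with another probe set of opposite sign, and the decarboxylase gene Mvd 1.30-fold. Hmgcs1, which makes HMG-CoA, had a difference of 0.19. The median was 0.04 when each gene was given the median of its probe sets. For sterol uptake and its control, 9 genes lay above the floor, with 1 called higher, 0 lower and a median of 0.06. Vldlr, the very low density lipoprotein receptor, was 1.58-fold higher at 56.8 in DEF/FOS and 36.2 in DEF/CT livers, a call lost with either offset, with the higher floor and without the a, s and x probe sets. Lpin1, which also affects nuclear SREBP, had a difference of 0.48, Rdh11, a retinol dehydrogenase induced by SREBPs, one of -0.51 and Npc1, the lysosomal cholesterol exporter, one of -0.37.

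Stard4 belongs to the START domain carriers, of which 12 others lay above the floor, with 2 called higher, 0 lower and a median of -0.01. Pctp, the phosphatidylcholine transfer protein, had signals of 1064 in DEF/FOS and 688 in DEF/CT livers, 1.56-fold higher and positive in both probe sets. Acot11, a thioesterase with a START domain, was 1.65-fold higher at 46.7 in DEF/FOS and 28.6 in DEF/CT livers, a call lost with either offset and with the higher floor. Stard13 and the sterol carrier gene Stard5 had differences of -0.39 and -0.35. Genes of sterol movement and storage inside the cell had 10 members above the floor, 0 of them called, and differences from -0.18 to 0.18. Osbp, the oxysterol-binding protein, and Osbpl8 stood at those ends, and Osbpl9 and Osbpl1a had -0.13 each, both with probe sets of opposite signs. The storage genes of this list, Soat1 and Soat2, had no probe set annotated with their symbol alone, so storage was not covered.

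Of the SREBP-1 target genes of fatty acid synthesis, 20 lay above the floor, with 1 called higher, 2 lower and a median of -0.04. Pklr, the liver pyruvate kinase, had signals of 412 in DEF/FOS and 747 in DEF/CT livers, 1.80-fold lower, with differences from -0.84 to -0.59 over its 3 probe sets. Pnpla5 was also 1.80-fold lower, a call lost with the higher floor, while Mid1ip1, whose product activates acetyl-CoA carboxylase, was 1.66-fold higher. Acss2, an acetyl-CoA synthetase, had a difference of -0.56 with probe sets of opposite signs. Fasn, fatty acid synthase, had one of 0.25 and Acaca, acetyl-CoA carboxylase, one of 0.21. Of LXR, the oxysterol receptor that induces Srebf1, and its targets, 11 genes lay above the floor, with 1 called higher, 0 lower and a median of 0.00. The phospholipid transfer protein gene Pltp was 1.71-fold higher, and Cyp7a1, which catalyses the limiting step of bile acid formation, had a difference of 0.58, just short of the fold used. The receptor gene Nr1h3 had a difference of -0.38 and the exporter gene Abcg1 one of -0.32. Abca1, named above as a miR-33 target, had signals of 2129 in DEF/FOS and 2056 in DEF/CT livers, a difference of 0.07. Its 3 probe sets ran from 0.07 to 0.30. The level of miR-33 was not examined, and its link to the Abca1 values was not tested.

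Partners and regulators of nuclear SREBP had 20 genes above the floor, with 3 called higher, 1 lower and a median of 0.04. The 3 called higher were dim, at or below signals of 69.1. None of the 3 calls was kept with an offset of 32, with the floor at the 75th percentile, or without the a, s and x probe sets. Crtc2, a coactivator of CREB, was 1.83-fold higher at 60.8 in DEF/FOS and 33.6 in DEF/CT livers, and positive in both probe sets. Nfya, a subunit of NF-Y, was 1.62-fold higher and Pparg, an adipogenic nuclear receptor, 1.54-fold. Ppargc1b, a coactivator of SREBP-1, was 1.70-fold lower at 136 in DEF/FOS and 234 in DEF/CT livers.

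**Figure D3:**
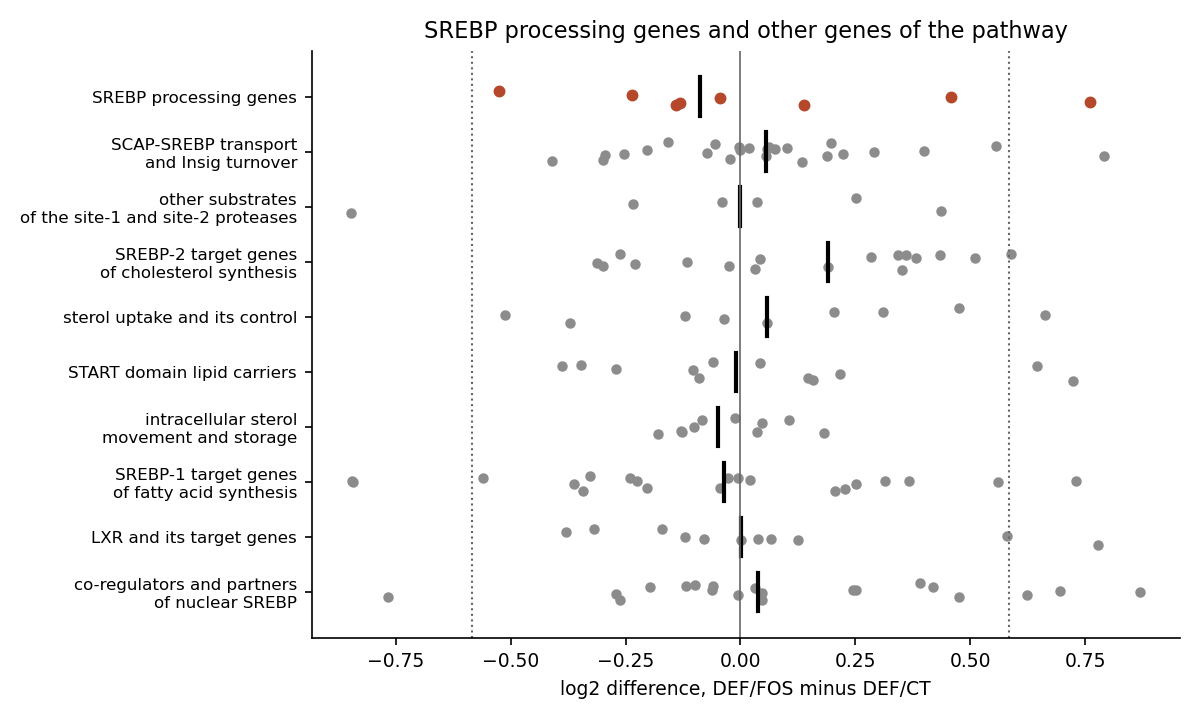
log2 difference, DEF/FOS minus DEF/CT, of each gene above the floor (points) and the median (black bars) for the 8 SREBP processing genes, top, and for 9 lists of other pathway genes; vertical scatter has no meaning and dotted lines mark 1.5-fold. The medians lie between -0.09 and 0.19, with the cholesterol synthesis genes at the upper end and the SREBP processing genes at the lower end.

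Most members kept their sign over the settings, but most of the settings could hardly have changed it. Centring and the floor moved all members that had a value by a shared amount. An offset keeps the sign of the uncentred difference. The median over probe sets cannot act on Srebf1, Insig1 and Mbtps2, which have 1 probe set each. Over 10 settings, or 9 where a gene had no value in 1 of them, Srebf2 ranged from 0.53 to 0.82, Mbtps2 from 0.36 to 0.51 and Srebf1 from 0.10 to 0.19. Scap ranged from -0.57 to -0.13, Insig1 from -0.28 to -0.18, Insig2 from -0.29 to -0.09 and Stard4 from -0.18 to -0.08. Mbtps1 was the exception, at -0.07 to 0.38. These settings reuse the same 2 arrays and say nothing of the spread between animals.

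**Figure D4:**
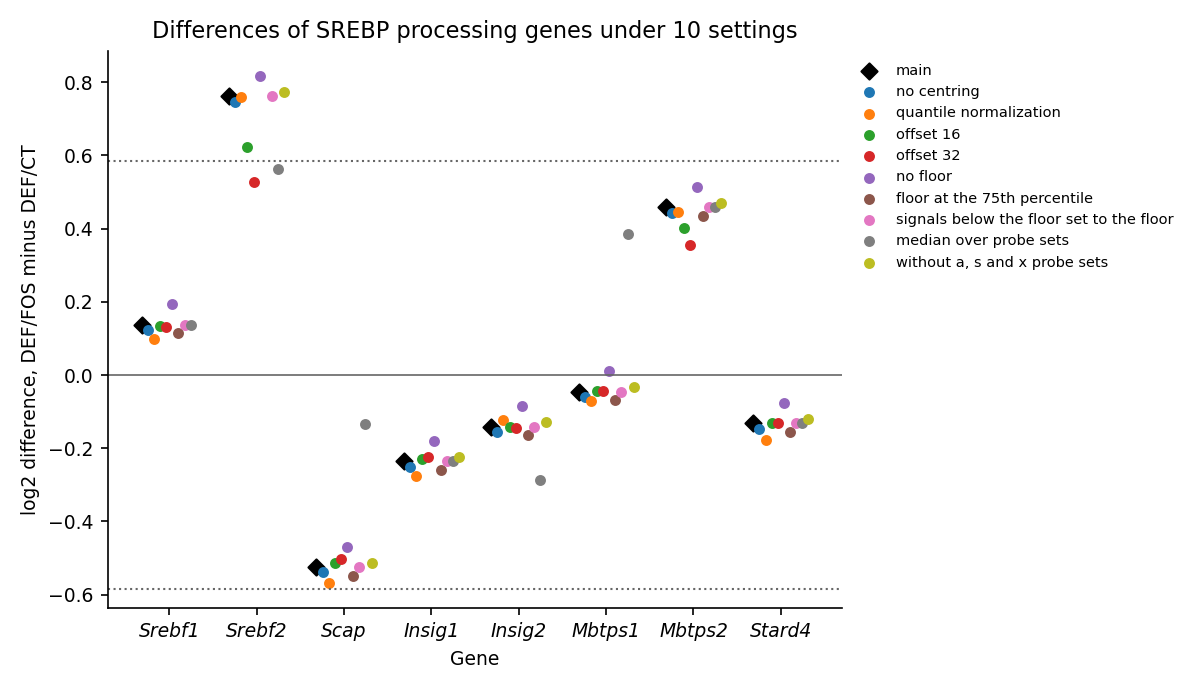
log2 difference, DEF/FOS minus DEF/CT, of each gene under the main setting (black diamonds) and 9 alternatives (coloured points); dotted lines mark 1.5-fold. Srebf2 lies below the upper line in 2 alternatives, and Mbtps1 is the only gene with points on both sides of 0.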

How the data were processed

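Liver RNA of the mice of each group was pooled and hybridised to 1 Affymetrix expression array per pool, per the labels' protocols. The authors deposited linear MAS5 intensities, and GCOS and MAS5 are named, with no version, in the submitters' processing notes. Both arrays had a 2% trimmed mean of 100.0, so they share 1 scale. Detection calls were not used here, and the number of arrays limits the precision.

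Gene symbols came from the platform annotation: 34958 probe sets have 1 symbol, 932 several, and 10092 that are not controls gave no single gene. Symbols were matched by Entrez identifier to RefSeq (GRCm38.p6) for 34754 probe sets, and 0 changed. Differences of log2 signal (no offset) were centred on -0.01, the median above the floor of 19.4. No p-value was computed. Members and lists were chosen with earlier results of these data known. Of the 149 list entries, 13 lacked a probe set of their own. The text names all members, the 4 genes farthest from 0 in each list, and genes fixed by symbol. In all, 9 alternatives were run. The scripts were checked on simulated data (Python 3.11.15, numpy 2.4.6, pandas 2.3.3).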

Additional observations from a re-analysis of the deposited data

How the results depend on the processing

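The 9 alternatives changed centring, normalization, offset, floor, the treatment of signals below the floor, the probe set that stands for a gene, and the use of probe sets that may match several transcripts. The count of members called higher was 1 in the main setting and 0 with an offset of 32, with the floor at the 75th percentile, where Srebf2 has no value, and with the median over probe sets. The count called lower was 0 in all of them. Over all lists, the count of genes called higher was 10, and it was 5 with an offset of 16, 4 with an offset of 32, 4 with the floor at the 75th percentile and 15 with no floor. The count called lower was 4, and it was 2 with the floor at the 75th percentile and 6 with no floor. Of 70 values of single members under the alternatives, 2 moved by more than the SD between probe sets, Scap at -0.13 and Mbtps1 at 0.38, both with the median over probe sets, and 0 called values changed sign. Without probe sets of the a, s and x kinds Srebf1 has no value. The medians of 7 of the 9 lists changed sign in at least 1 alternative, 19 times in all, with shifts of up to 0.16. Over all genes, 754 were called higher and 873 lower, against 2856 and 3546 with no floor, 435 and 458 with an offset of 16, 278 and 258 with an offset of 32, and 244 and 212 with the floor at the 75th percentile. The share of calls that were higher moved little with scaling, with 713 and 905 without centring and 799 and 796 after quantile normalization. No paired analysis was possible because each group has 1 array. For the same reason no array could be left out.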
